A study of Mus musculus with 6 samples.

Results

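The genes described here encode splicing factors and proteins of the small nuclear ribonucleoproteins (snRNPs), the RNA and protein particles of the spliceosome. They were chosen by name alone: gene entries whose symbol begins with Srsf or Sfrs and a digit, with Hnrnp, with Sf3a or Sf3b, with Snrp, or with Prpf. Of 63 matching entries, the pseudogene entry Hnrnpa1l2-ps was left out by the rule. The remaining 62 symbols, of 17169 gene entries in all, are 12 SR protein genes, 18 hnRNP genes, 8 SF3 genes, 11 Snrp genes and 13 Prpf genes. All 62 reached the required mean of 1 FPKM over the 6 libraries and were above 1 FPKM in every library, so no gene was lost to a filter on low values. FPKM is the number of sequenced fragments scaled by transcript length and by library size.

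The study compared mouse stem cell leukemia and lymphoma (SCLL) cell lines with and without inhibition of FGFR1, the growth factor receptor kinase that is part of a fusion protein in this disease. The BGJ398 libraries came from 3 lines, BBC, ZNF and BCRF8C, treated with the FGFR kinase inhibitor BGJ398, also known as infigratinib, for 24 h. The other libraries came from the same 3 lines treated with the solvent DMSO. The protocol calls BBC and ZNF by the longer names BBC2 and ZNF112. All lines were derived from bone marrow of diseased Balb/c mice, and each line gave 1 library per agent, so there are 3 BGJ398 and 3 DMSO libraries and no replicates within a line. The doses named are 30, 3 and 1.5 nM. Read in list order, which is an assumption, 30 nM belongs to BBC, 3 nM to ZNF and 1.5 nM to BCRF8C. Dose and line cannot be told apart. The fusion partner of FGFR1 in each line is not given in the sources used here.

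Splicing removes introns from a primary transcript and joins its exons. Most small nuclear RNAs of the spliceosome carry a ring of Sm proteins, and particle-specific proteins complete the U1 and U2 snRNPs, which recognise the start of the intron and its branch point. The SF3a and SF3b complexes belong to the U2 snRNP and hold it at the branch point. The Prpf proteins, named after yeast pre-mRNA processing mutants, act mainly in the tri-snRNP and in the activation of the assembled spliceosome. SR proteins bind exons through RNA recognition motifs and promote splice site use, whereas hnRNPs coat nascent transcripts and often repress it. In blood cancers SF3B1 and SRSF2 are known as recurrently mutated genes in human patients.

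The libraries of the 2 agents differed in scale. The median of the 14232 entries tested (those averaging 1 FPKM or more) was 4.53, 6.47 and 4.92 FPKM with BGJ398 in BBC, ZNF and BCRF8C, against 9.95, 8.36 and 9.03 FPKM with DMSO. The spread of log2 values was narrower with BGJ398 (SD 1.58 to 1.93) than with DMSO (SD 2.18 to 2.40), and the log2 ratio of BGJ398 over DMSO was lower at higher mean levels (Pearson's r across entries -0.35 in BBC, -0.39 in ZNF, -0.53 in BCRF8C). Agent and library cannot be told apart here, and the depth is unknown. The leukocyte genes used as markers (Ptprc, Coro1a, Laptm5, Lcp1 and Cd53) were all above 1 FPKM in each library, with sums of 249 to 335 FPKM with BGJ398 and 611 to 747 FPKM with DMSO. All 7 B-lineage markers were above 1 FPKM in both BBC libraries (sum 693 FPKM with BGJ398 and 1384 FPKM with DMSO), while in ZNF and in BCRF8C 3 of 7 exceeded 1 FPKM with BGJ398 and 0 with DMSO. The 4 T-lineage markers with an entry were all above 1 FPKM in ZNF (sum 406 FPKM with BGJ398 and 622 FPKM with DMSO). In BBC 4 of them exceeded 1 FPKM with BGJ398 and 1 with DMSO (sums 32.8 and 30.8 FPKM). Most of this was Lck, at 27.5 FPKM with BGJ398 and 28.6 FPKM with DMSO. In BCRF8C 3 did so with BGJ398 and 1 with DMSO (sums 8.95 and 3.34 FPKM). Of the myeloid, erythroid and stromal lists, the largest sum was 78.6 FPKM, of stromal markers in BCRF8C with DMSO, mostly Pecam1 (30.0 FPKM with BGJ398 and 77.4 FPKM with DMSO). Every nonzero BGJ398 value of a marker was above 1 FPKM, the lowest being 1.02 FPKM for Cd79a in BCRF8C. DMSO values went lower, such as 0.148 FPKM for Cd79a in BCRF8C. Counts above 1 FPKM with BGJ398 are thus counts of nonzero markers, and are not a gain of markers over DMSO. The part of these markers in the results below was not tested.

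Splicing factor genes were lower with BGJ398 in nearly every comparison. Their summed level was 1467 FPKM with BGJ398 and 6852 FPKM with DMSO in BBC. It was 4346 FPKM with BGJ398 and 8305 FPKM with DMSO in ZNF, and 2737 FPKM with BGJ398 and 8875 FPKM with DMSO in BCRF8C. The difference was thus smallest in ZNF. In bulk RNA, fewer cells that express a gene and less of its RNA per cell cannot be told apart. Across the lines, 35 of the 62 genes fell (limma on log2(FPKM + 1) with the line as a block, Benjamini-Hochberg adjusted p under 0.05), 0 rose and 27 were not called. Among all entries tested, 30.2% were called lower and 6.61% higher. The 3 BGJ398 libraries all lay below the 3 DMSO libraries for 51 of the 62 genes, against 35.1% of all entries. In all 3 lines 60 of the 62 were lower (55.7% of all entries), and the exceptions were Sfrs18 in ZNF and Hnrnpr in BCRF8C.

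**Figure D1:**
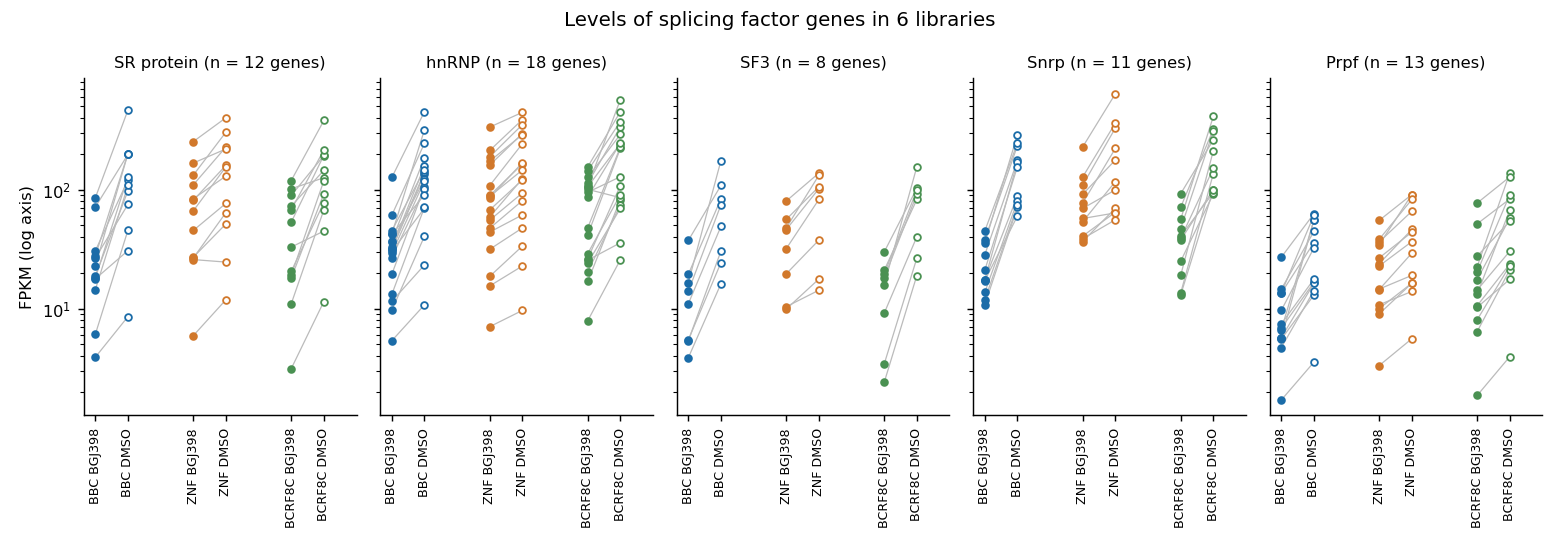
FPKM (log axis) of each splicing factor gene, 1 panel per gene family, in the 6 libraries. Filled points are BGJ398 libraries, open points are DMSO libraries of the same line, and grey lines join a gene's values in a line. The lines slope up from BGJ398 to DMSO for all but Sfrs18 in ZNF and Hnrnpr in BCRF8C, and are flattest in ZNF.

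The median log2 ratio of BGJ398 over DMSO was -1.51 for the 62 genes and -0.69 for all 14232 entries, a difference of -0.82. Single genes ranged between -2.74 (Snrpd2) and -0.38 (Sfrs18), so no member had a mean ratio above 0. Part of the distance to all entries goes with expression level. These genes are strongly expressed, with a median percentile among tested entries of 85.1 with BGJ398 and 91.1 with DMSO in BBC, 91.7 with BGJ398 and 92.5 with DMSO in ZNF, and 90.7 with BGJ398 and 92.8 with DMSO in BCRF8C. A smooth curve of ratio against mean level was therefore subtracted in each line, which puts 0 at the ratio typical of genes of similar level. On that scale the members had a median of -0.15, with 35 of 62 below 0 and 27 above it, while all entries had a median of 0.026 and 48.3% were below 0.

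**Figure D2:**
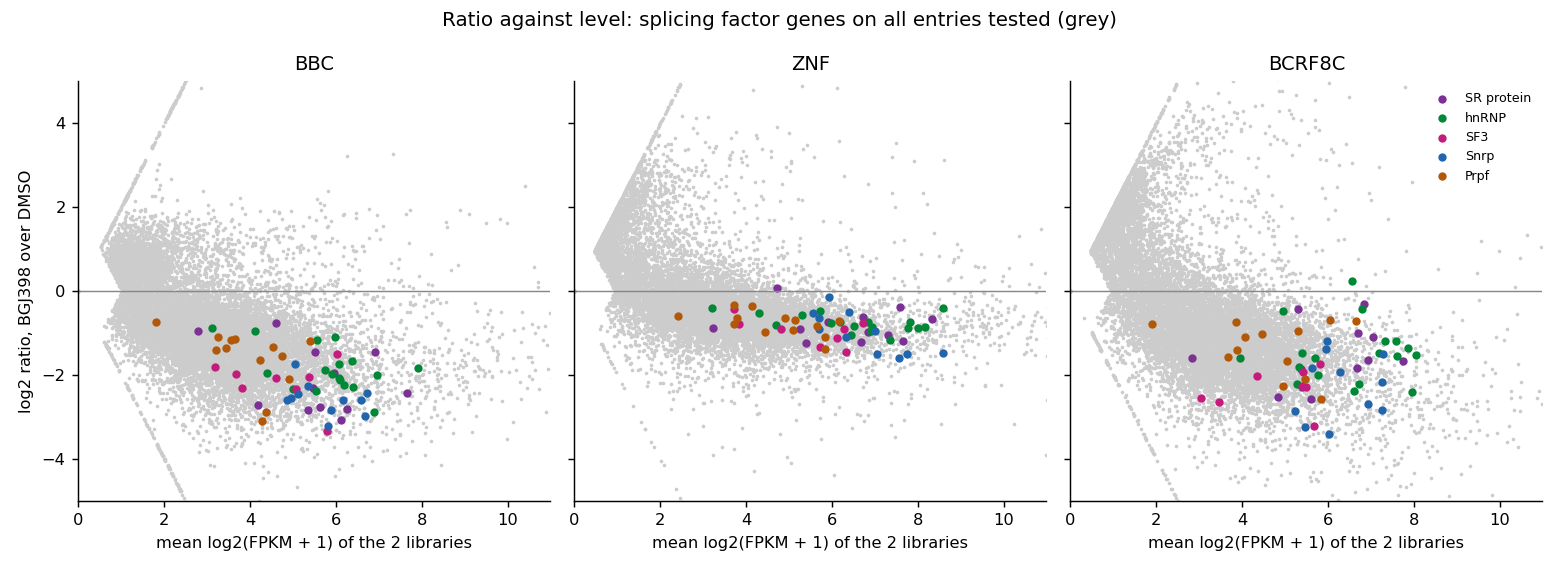
Log2 ratio, BGJ398 over DMSO, against the mean log2(FPKM + 1) of the 2 libraries of each line. Coloured points are splicing factor genes by family, grey points are all entries tested, and entries beyond the axis limits are not drawn. The grey cloud bends downward at high levels, and most members lie within it, with Snrp and SF3 genes toward its lower edge in BBC and BCRF8C.

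The calls depend on the scale of the libraries. Scaled by median of ratios, 0 of the 62 were called by limma and 34 had an unadjusted p under 0.05, as did 40.4% of all entries. Quantile normalization gave 0 called members and 18 at that unadjusted level, against 0.0211% and 23.5% of all entries by the same criteria. On the scale with the trend subtracted, 0 members and 0.0% of all entries were called, and 9 members had an unadjusted p under 0.05, against 23.0% of all entries. Without BBC 0 of the 62 were called, without ZNF 50 were, and without BCRF8C 3 were, namely Prpf19, Sf3b5 and Snrpd2. Of all 14232 entries, 0 were called lower without BBC, 4795 without ZNF and 852 without BCRF8C. The 3 of 62 without BCRF8C are a share no higher than that of all entries. The families are therefore described below both as deposited and relative to genes of similar level.

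The Snrp genes encode the Sm core and the proteins particular to U1 and U2, and they had the lowest median of the 5 families. Of 11 genes, 8 fell (adjusted p 0.0348 to 0.0430, limma), with a family median log2 ratio of -2.03, and all 11 were lower in each line. Over all entries 30.2% were called lower and 55.7% were lower in each line. The family median relative to genes of similar level was -0.42, with 8 genes below 0. The 7 Sm ring genes (Snrpb, Snrpd1, Snrpd2, Snrpd3, Snrpe, Snrpf and Snrpg) had a median log2 ratio of -2.26, and the 4 genes of U1 and U2 proteins (Snrpa, Snrpc, Snrpa1 and Snrpb2) had -1.60. This split follows textbook roles and was made with the values in view. Against genes of similar level the medians were -0.65 for the Sm ring and -0.17 for the other 4, and the difference between them was not tested.

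Snrpd2, whose product SmD2 is a ring protein (chr7:19735071-19738084, NCBIM37), was the lowest of all 62 genes. With BGJ398 it stood at 17.4 FPKM in BBC, 109 FPKM in ZNF and 19.0 FPKM in BCRF8C, against 171, 329.6 and 212 FPKM with DMSO in the same lines. All 3 BGJ398 libraries lay below all 3 DMSO libraries, and the BGJ398 level was 10.2%, 33.1% and 8.96% of the DMSO level. Its mean log2 ratio was -2.74 ± 1.005 (SD over 3 lines; limma adjusted p = 0.0348). Its distance from genes of similar level was -1.52 in BBC, -0.66 in ZNF and -1.59 in BCRF8C. Snrpb encodes SmB, a ring protein known in human for its alternatively spliced forms. Its level was 28.4 FPKM in BBC, 77.2 FPKM in ZNF and 13.5 FPKM in BCRF8C with BGJ398, against 176, 222 and 136 FPKM with DMSO. The groups did not overlap, and the mean log2 ratio was -2.45 ± 0.87 (SD, n = 3; limma adjusted p = 0.0348).

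Snrpe, which encodes the ring protein SmE, was the most abundant Snrp gene by mean FPKM. It was measured at 37.9 FPKM in BBC, 229 FPKM in ZNF and 47.1 FPKM in BCRF8C with BGJ398, against 234, 639 and 309.9 FPKM with DMSO. The BGJ398 library of ZNF came close to the DMSO library of BBC, but the groups did not overlap (log2 ratio -2.26 ± 0.67, SD, n = 3; limma adjusted p = 0.0348). Snrpg, the ring neighbour SmG, had the same mean log2 ratio of -2.26 (SD 0.69). The ring genes Snrpd1 and Snrpd3 fell too, with log2 ratios of -2.03 and -1.66 (limma adjusted p = 0.0372 and 0.0430).

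Snrpf (SmF) was the ring gene that was not called, and it varied most between the lines. With BGJ398 it had 21.0 FPKM in BBC, 57.2 FPKM in ZNF and 92.4 FPKM in BCRF8C, against 156, 63.8 and 262 FPKM with DMSO. The BGJ398 library of BCRF8C was above the DMSO library of ZNF, so the groups overlapped. In ZNF the level with BGJ398 was 89.8% of that with DMSO, while in BBC it was 13.5% and in BCRF8C 35.3% (mean log2 ratio -1.49 ± 1.34, SD, n = 3; limma adjusted p = 0.0798). The locus given for Snrpf holds 2 other entries, which makes its reads uncertain. Among the U1 and U2 proteins, Snrpc, which acts in start site recognition by U1, and Snrpa1, a leucine rich repeat protein of U2, fell, with log2 ratios of -2.12 and -1.80. Snrpb2, a U2 protein that binds the small nuclear RNA, had the highest ratio of the family. Its values were 17.2 FPKM in BBC, 40.8 FPKM in ZNF and 40.5 FPKM in BCRF8C with BGJ398, against 60.03, 64.6 and 94.5 FPKM with DMSO. The groups did not overlap, yet the gene was not called (log2 ratio -1.20 ± 0.55, SD, n = 3; limma adjusted p = 0.0529).

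All 8 SF3 genes fell (adjusted p 0.0348 to 0.0464, limma), and in each of them every BGJ398 library lay below every DMSO library. Over all entries the shares were 30.2% and 35.1%. After median-of-ratios scaling, quantile normalization or trend removal, 0 of the 8 were called. The family median log2 ratio was -1.79, with -1.78 for the 3 SF3a genes and -1.82 for the 5 SF3b genes. Relative to genes of similar level the median was -0.51, the lowest of the 5 families, and 7 of 8 genes lay below 0. All 8 were at least 2-fold lower in BBC and in BCRF8C (45.0% and 43.5% of entries), and 3 were in ZNF (16.3%).

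Sf3b5, which encodes the smallest SF3b subunit (chr10:12728256-12728988, NCBIM37), had the lowest ratio and the highest mean FPKM of the SF3 genes. Its level was 16.5 FPKM in BBC, 47.7 FPKM in ZNF and 15.9 FPKM in BCRF8C with BGJ398, against 175, 132 and 155 FPKM with DMSO. The DMSO levels were alike, and the BGJ398 levels were 9.44%, 36.1% and 10.2% of them (log2 ratio -2.66 ± 1.05, SD, n = 3; limma adjusted p = 0.0348). Sf3b3, a large scaffold subunit, followed. It had 13.9 FPKM in BBC, 56.2 FPKM in ZNF and 19.5 FPKM in BCRF8C with BGJ398, against 74.6, 106 and 99.2 FPKM with DMSO (log2 ratio -1.84 ± 0.82, SD, n = 3; limma adjusted p = 0.0349). Its locus holds 5 other entries, so the attribution of its reads is uncertain.

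Sf3b1, the subunit that clamps the branch point helix and that is mutated in human myelodysplastic syndromes, had the SF3 log2 ratio nearest to 0. With BGJ398 it was at 37.4 FPKM in BBC, 80.2 FPKM in ZNF and 29.9 FPKM in BCRF8C, against 108, 138 and 103 FPKM with DMSO. All BGJ398 libraries were below all DMSO libraries, at 34.5%, 58.2% and 29.2% of the DMSO level (log2 ratio -1.34 ± 0.51, SD, n = 3; limma adjusted p = 0.0464). Relative to genes of similar level it was at 0.22, 0.15 and 0.026 in BBC, ZNF and BCRF8C, the only SF3 gene above 0 in all 3 lines. Sf3b4, an RNA binding subunit with a low level, had the widest range between lines. It was measured at 3.87 FPKM in BBC, 10.4 FPKM in ZNF and 2.40 FPKM in BCRF8C with BGJ398, against 16.2, 14.3 and 19.0 FPKM with DMSO. The reduction was least in ZNF, at 72.7% of the DMSO level, and strongest in BCRF8C, at 12.7% (log2 ratio -1.60 ± 1.08, SD, n = 3; limma adjusted p = 0.0402). The SF3a genes, which encode the SF3a trimer, were close together, with log2 ratios of -1.74 (Sf3a1), -1.80 (Sf3a2) and -1.78 (Sf3a3).

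Promoter sequence was not used in the choice of the genes. Promoters from RefSeq (GRCm38.p6, 250 bases before to 50 bases after a transcript start) matched 53 of the 62 genes by symbol. CCGGAAG is a form of the binding motif of the ETS family of transcription factors, and other forms were not counted. It was present on either strand in a promoter of 19 of the 53 (35.8%), against 9.93% of all 27025 genes. By family these were 5 of 6 SF3 genes, 4 of 10 SR protein genes, 4 of 9 Snrp genes, 4 of 11 Prpf genes and 2 of 17 hnRNP genes. GGGCGG, a binding motif of SP factors, was found for 67.9% of the 53 genes and 38.2% of all genes. CACGTG, the E-box bound by MYC and MAX, was found for 17.0% and 8.09%, TATAAA for 11.3% and 15.7%, and the palindromic motif of NRF1 for 1.89% and 1.07%, each time members before all genes. Member promoters were also richer in GC (median 60.3%, against 52.7% for all promoters), and what part of these shares goes with GC content was not tested. A match describes letters in a window and says nothing of binding. The stretches that follow are the SF3 promoters with a match and, for contrast, those of Sf3b1, Snrpd2 and Hnrnpr. Snrpd2 had the lowest mean ratio of the members, and Hnrnpr in BCRF8C had the highest ratio of any member in a single line. The stretches read in the direction of transcription, with CCGGAAG or its reverse complement CTTCCGG in capitals. Each ends 1 base before the transcript start, except that of Sf3b3, which covers the bases from -250 to -151.
Sf3a1 (chr11:4160254-4160353, plus strand): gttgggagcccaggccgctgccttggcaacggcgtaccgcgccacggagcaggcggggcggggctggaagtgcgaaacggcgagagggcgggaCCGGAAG
Sf3a2 (chr10:80798635-80798734, plus strand): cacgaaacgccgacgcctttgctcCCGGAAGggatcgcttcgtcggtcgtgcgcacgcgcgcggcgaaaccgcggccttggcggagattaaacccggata
Sf3a3 (chr4:124714761-124714860, plus strand): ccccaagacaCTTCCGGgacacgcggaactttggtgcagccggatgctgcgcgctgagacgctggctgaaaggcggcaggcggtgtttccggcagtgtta
Sf3b1 (chr1:55027479-55027578, minus strand): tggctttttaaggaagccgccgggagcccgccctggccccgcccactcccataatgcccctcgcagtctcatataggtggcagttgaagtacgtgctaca
Sf3b2 (chr19:5295458-5295557, minus strand): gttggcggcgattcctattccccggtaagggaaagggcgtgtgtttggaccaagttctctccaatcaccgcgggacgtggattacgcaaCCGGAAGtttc
Sf3b3 (chr8:110846954-110847053, minus strand): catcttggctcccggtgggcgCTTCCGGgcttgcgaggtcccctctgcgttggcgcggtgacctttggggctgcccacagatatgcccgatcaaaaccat
Snrpd2 (chr7:19149738-19149837, plus strand): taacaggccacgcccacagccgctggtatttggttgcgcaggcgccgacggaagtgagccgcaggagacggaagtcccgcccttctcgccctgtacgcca
Hnrnpr (chr4:136310842-136310941, plus strand): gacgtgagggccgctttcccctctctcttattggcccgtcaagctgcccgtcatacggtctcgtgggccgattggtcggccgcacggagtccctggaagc
No capitals stand in the stretches of Sf3b1, Snrpd2 and Hnrnpr, and CCGGAAG was not in the full windows of these genes either. The Snrpd2 stretch does hold ACGGAAG, which differs from CCGGAAG in its first letter and was not counted. Sf3b4 and Sf3b5 had no promoter matched by symbol.

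Prpf genes encode mostly tri-snRNP and activation factors, and their median ratio was the nearest to 0 of the 5 families. Of 13 genes, 7 fell (Prpf3, Prpf4, Prpf6, Prpf8, Prpf19, Prpf31 and Prpf38a, adjusted p 0.0348 to 0.0412, limma), against 30.2% of all entries. The family median log2 ratio was -1.09, and -0.023 relative to genes of similar level. Their level was also the lowest of the families, with a median percentile of 63.2 with BGJ398 and 78.3 with DMSO in BBC. Prpf19 is a ubiquitin ligase and the core of the Prp19 complex (chr19:10969733-10980019, NCBIM37). It had 5.62 FPKM in BBC, 34.4 FPKM in ZNF and 13.3 FPKM in BCRF8C with BGJ398, against 55.6, 91.0 and 67.3 FPKM with DMSO. Every BGJ398 library lay below every DMSO library, at 10.1%, 37.8% and 19.7% of the DMSO level (log2 ratio -2.24 ± 0.86, SD, n = 3; limma adjusted p = 0.0348).

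Prpf31, a tri-snRNP protein, was measured at 6.63 FPKM in BBC, 36.4 FPKM in ZNF and 22.5 FPKM in BCRF8C with BGJ398, against 55.5, 65.8 and 138 FPKM with DMSO. The groups did not overlap, and the loss was weakest in ZNF (log2 ratio -2.10 ± 1.10, SD, n = 3; limma adjusted p = 0.0348). Prpf8, the protein at the catalytic centre of the spliceosome, fell by 1.76 on the log2 scale (SD 0.58). The ratio of Prpf40b, whose yeast relative is a U1 snRNP protein, was nearer to the median of all entries (-0.69). Prpf40b had 1.71 FPKM in BBC, 3.33 FPKM in ZNF and 1.86 FPKM in BCRF8C with BGJ398, against 3.55, 5.59 and 3.96 FPKM with DMSO. The 3 lines were close to each other at 48.0%, 59.5% and 47.1% of the DMSO level, and the gene was not called (log2 ratio -0.72 ± 0.10, SD, n = 3; limma adjusted p = 0.0867).

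Of the 12 SR protein genes, 6 fell (Srsf2, Srsf3, Srsf4, Srsf6, Srsf7 and Srsf9, adjusted p 0.0348 to 0.0364, limma), against 30.2% of all entries. The family median log2 ratio was -1.65. The genes split widely relative to genes of similar level, with a median of -0.23, 7 genes below 0 and 5 above it. Srsf9, a short SR protein (chr5:115777186-115783089, NCBIM37), had the lowest ratio. With BGJ398 it was at 18.1 FPKM in BBC, 26.6 FPKM in ZNF and 10.98 FPKM in BCRF8C, against 128, 64.1 and 67.7 FPKM with DMSO. Srsf7, an SR protein with a zinc knuckle, had 14.4 FPKM in BBC, 66.3 FPKM in ZNF and 18.0 FPKM in BCRF8C with BGJ398, against 109, 156 and 92.7 FPKM with DMSO. In both genes all BGJ398 libraries lay below all DMSO libraries. The log2 ratios were -2.17 ± 0.82 for Srsf9 and -2.11 ± 0.82 for Srsf7 (SD, n = 3; limma adjusted p = 0.0348 for both).

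Srsf1, the best studied SR protein and a regulator of splice site choice, was the most abundant gene of the family. It stood at 85.3 FPKM in BBC, 253 FPKM in ZNF and 119 FPKM in BCRF8C with BGJ398, against 467, 402 and 381 FPKM with DMSO. The groups did not overlap, but the lines differed and the gene was not called (log2 ratio -1.59 ± 0.89, SD, n = 3; limma adjusted p = 0.0635). The entry Srsf2.1 (ENSMUSG00000093603) shares its locus with Srsf2 and 3 other entries, and how reads were divided between them is uncertain. Srsf2.1 had 22.8 FPKM in BBC, 109.6 FPKM in ZNF and 72.6 FPKM in BCRF8C with BGJ398, against 201, 228 and 145 FPKM with DMSO. Its level with BGJ398 was 11.4% of DMSO in BBC but 48.0% in ZNF and 49.9% in BCRF8C, the widest range of the family (log2 ratio -1.71 ± 1.19, SD, n = 3; limma adjusted p = 0.0538). Srsf2 itself fell, at 13.3%, 52.5% and 16.01% of the DMSO level in BBC, ZNF and BCRF8C.

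Sfrs18, an arginine and serine rich protein listed under its newer symbol Pnisr in the gene name table, was the least changed of all 62 genes. It had 17.8 FPKM in BBC, 25.8 FPKM in ZNF and 32.9 FPKM in BCRF8C with BGJ398, against 30.8, 24.6 and 44.9 FPKM with DMSO. The groups overlapped, and ZNF was slightly higher with BGJ398, at 105% of the DMSO level (log2 ratio -0.38 ± 0.42, SD, n = 3; limma adjusted p = 0.390). Relative to genes of similar level it was at 0.73, 0.81 and 1.21 in BBC, ZNF and BCRF8C, the highest mean of the members (0.92; limma adjusted p = 0.148 on that scale). Srsf11, Srsf5 and Srsf10 were also above genes of similar level on average, at 0.68, 0.42 and 0.34, and none of them was called as deposited.

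The 18 hnRNP genes had the highest median level of the 5 families in BCRF8C, 67.3 FPKM with BGJ398 and 175 FPKM with DMSO. Of these, Hnrnpa0, Hnrnpab, Hnrnpc, Hnrnpd, Hnrnpf and Hnrnpl, 6 of 18, fell (adjusted p 0.0348 to 0.0408, limma), a share near the 30.2% of all entries, with a family median log2 ratio of -1.39. Relative to genes of similar level the median was 0.18, the highest of the 5 families, with 12 genes above 0 and 6 below. In BCRF8C the median percentile of the family was 96.6 with BGJ398 and 95.5 with DMSO, so its rank was no lower with BGJ398 although its levels were. Hnrnpab, a protein that binds AU rich RNA, had the lowest ratio. Its level was 42.4 FPKM in BBC, 213 FPKM in ZNF and 106 FPKM in BCRF8C with BGJ398, against 318, 388 and 569 FPKM with DMSO. The groups did not overlap (log2 ratio -2.05 ± 1.06, SD, n = 3; limma adjusted p = 0.0408). Hnrnpl, which binds CA repeats and represses exons, was at 37.1 FPKM in BBC, 108 FPKM in ZNF and 47.8 FPKM in BCRF8C with BGJ398, against 185, 243 and 227 FPKM with DMSO. Its BGJ398 levels were 20.1%, 44.5% and 21.0% of DMSO (log2 ratio -1.89 ± 0.63, SD, n = 3; limma adjusted p = 0.0350).

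Hnrnpk, a KH domain protein that binds C rich RNA, was the most abundant of all 62 genes. It was measured at 126 FPKM in BBC, 335 FPKM in ZNF and 155 FPKM in BCRF8C with BGJ398, against 452, 446 and 452 FPKM with DMSO. The DMSO levels were nearly equal in the 3 lines, and those with BGJ398 all lay below them, but the gene was not called (log2 ratio -1.26 ± 0.75, SD, n = 3; limma adjusted p = 0.107). Hnrnph3, of the family that binds G runs, had the highest ratio. With BGJ398 it had 11.5 FPKM in BBC, 15.5 FPKM in ZNF and 25.6 FPKM in BCRF8C, against 23.3, 22.8 and 35.8 FPKM with DMSO. The BGJ398 library of BCRF8C was above the DMSO libraries of BBC and ZNF, and the mean log2 ratio was -0.65 ± 0.27 (SD, n = 3; limma adjusted p = 0.133).

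Hnrnpr, which encodes a close relative of the RNA binding protein SYNCRIP (chr4:135866857-135896596, NCBIM37), had the widest range between lines of the hnRNP genes. With BGJ398 its level was 13.2 FPKM in BBC, 47.4 FPKM in ZNF and 101 FPKM in BCRF8C, against 71.0, 80.9 and 85.6 FPKM with DMSO. The DMSO libraries were alike, while the BGJ398 library was low in BBC, intermediate in ZNF and above its DMSO library in BCRF8C. These levels were 18.6%, 58.6% and 118% of DMSO, and the gene was not called (log2 ratio -0.96 ± 1.30, SD, n = 3; limma adjusted p = 0.192). In BCRF8C it stood 2.18 above genes of similar level on the log2 scale, the highest value of any member in any line. Hnrnpa3, a relative of the core hnRNP A1, was above genes of similar level in each line, by 0.50 in BBC, 0.38 in ZNF and by 1.58 in BCRF8C.

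**Figure D3:**
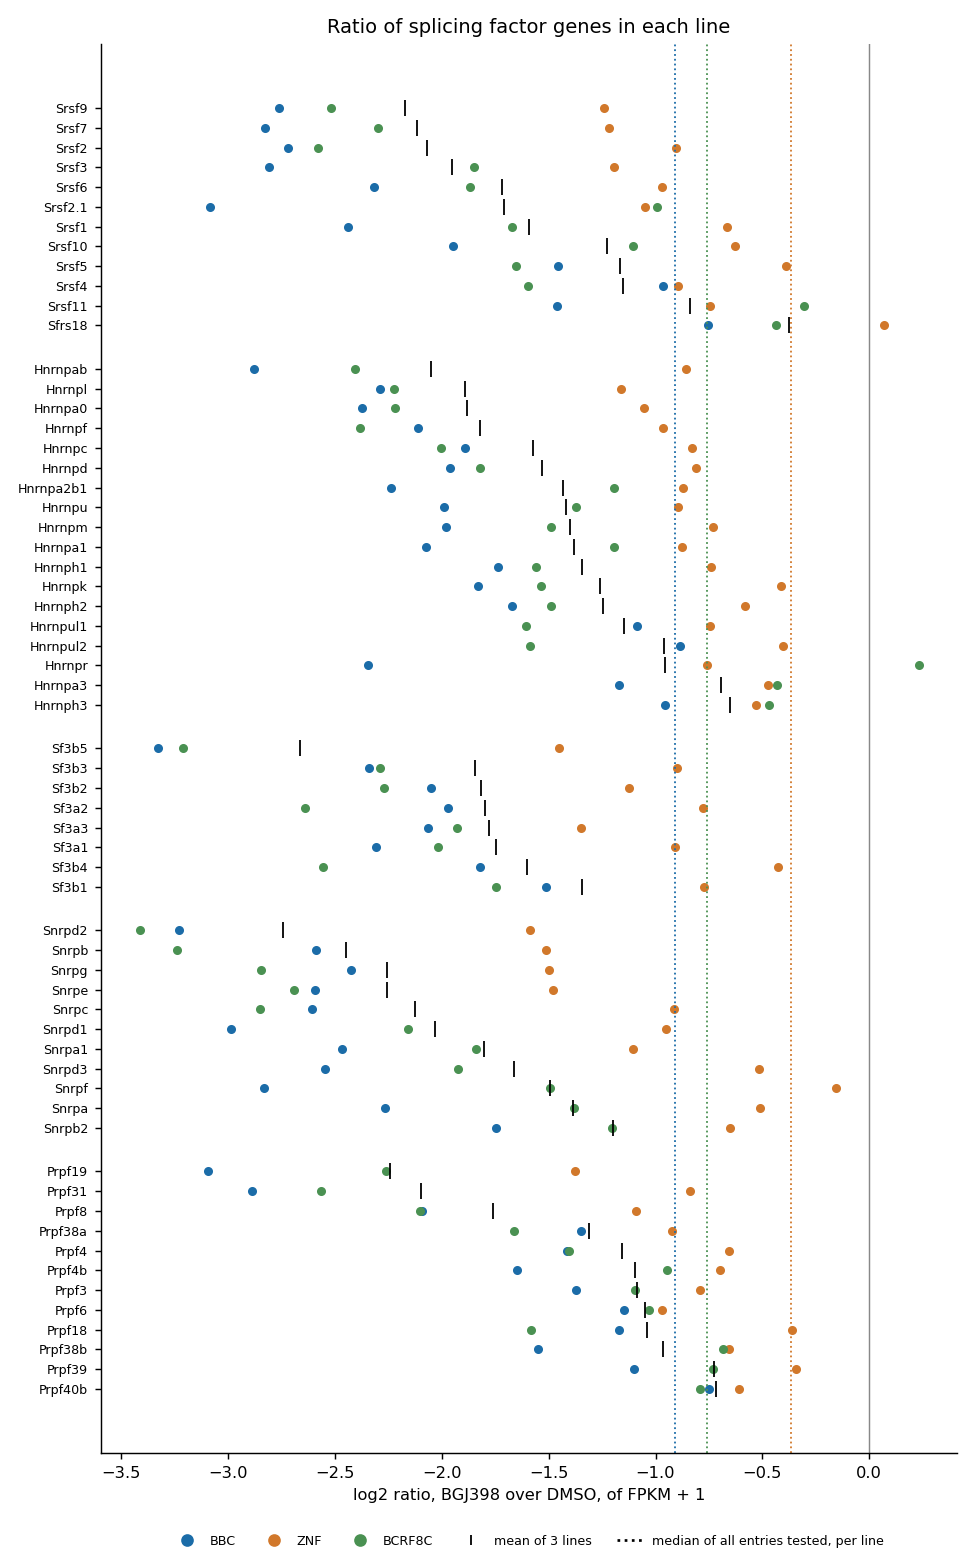
Log2 ratio, BGJ398 over DMSO, of FPKM + 1 for 61 of the 62 genes, grouped by family and ordered by the mean of the 3 lines (black ticks). Points are single lines, each from 1 BGJ398 and 1 DMSO library, and dotted lines mark the median of all entries tested in each line. ZNF lies nearest to 0 for most genes, and Snrpd2, Sf3b5 and Snrpb have the lowest means.

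The size of the ratios differed between the lines. At least 2-fold lower with BGJ398 were 57 of 62 genes in BBC (45.0% of the entries averaging 1 FPKM or more in that line), 16 in ZNF (16.3%) and 51 in BCRF8C (43.5%). At least 2-fold higher were 0 of the 62 in each line, against 8.79%, 13.2% and 21.7% of entries. These shares of entries are not matched for expression level, and ratios were lower at higher levels in each line. The median member was at 22.9% of its DMSO level in BBC, 55.3% in ZNF and 29.7% in BCRF8C. The ranges were 9.44% (Sf3b5) to 57.9% (Sfrs18) in BBC, 33.1% (Snrpd2) to 105% (Sfrs18) in ZNF, and 8.96% (Snrpd2) to 118% (Hnrnpr) in BCRF8C. The lowest ratio of a gene was in BBC for 43 genes, in BCRF8C for 19 and in ZNF for 0. With 1 library per line and agent, differences between lines were not tested, and ZNF, BBC and BCRF8C also differ in lineage markers and, by list order, in dose.

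The order of the genes was partly shared between lines. Pearson's r of the log2 ratios across the 62 genes was 0.61 between BBC and ZNF, 0.64 between BBC and BCRF8C, and 0.63 between ZNF and BCRF8C. Over all 14232 entries the values were 0.46, 0.55 and 0.56. These are correlations across genes, which are not independent replicates, and every point of a line shares the same 2 libraries. Relative to genes of similar level, 24 of the 62 were below 0 in all 3 lines and 11 were above, against 25.3% and 27.2% of all entries. Of the 24, 7 were Snrp, 5 SF3, 4 SR protein, 4 hnRNP and 4 Prpf genes. The median on this scale was -0.50 in BBC, where 46 genes were below 0 (49.4% of all entries), 0.0056 in ZNF with 30 below (49.8%), and -0.084 in BCRF8C with 34 below (49.0%). The families moved apart most in BCRF8C, where the hnRNP median was 0.40, that of the SR protein genes 0.26, and that of the SF3 genes -0.60. In BCRF8C the members' ratios on this scale still went with mean log2 level (Pearson's r 0.46, and -0.00037 over all entries). The same r across members was -0.11 in BBC and -0.032 in ZNF. The part of expression level in the family differences was not tested. In BBC the medians ran between -0.87 for Snrp and -0.14 for Prpf genes, with -0.23 for hnRNP genes.

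**Figure D4:**
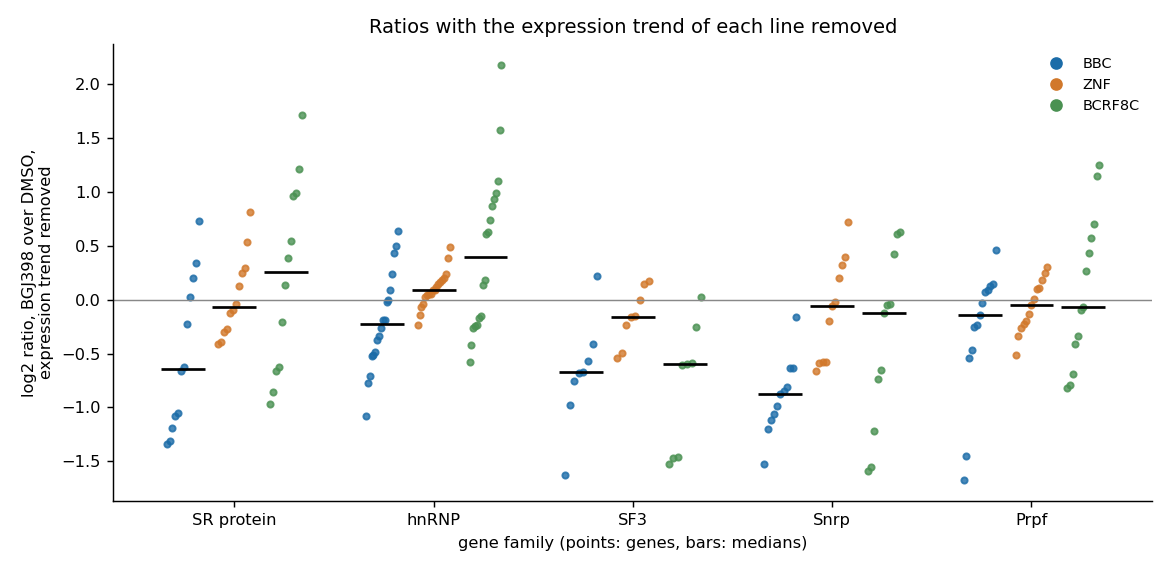
Log2 ratio, BGJ398 over DMSO, after removal of the expression trend in each line, for the 5 families. Points are genes, coloured by line and ordered by value within a family and line, and bars are medians. SF3 genes lie mostly below 0 in BBC and BCRF8C, while most hnRNP genes lie above 0 in ZNF and BCRF8C, with Hnrnpr highest at 2.18.

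On that scale 9 of the 62 genes had an unadjusted p under 0.05 in limma, of 3273 entries in all (23.0%), a share of the members no higher than that of all entries, and 0 passed the adjustment. Below 0 were Snrpd2 (-1.26), Sf3b5 (-1.21), Snrpb (-0.99), Prpf19 (-0.96), Srsf9 (-0.82), Srsf7 (-0.70), Snrpe (-0.68) and Snrpg (-0.65), and above 0 was Sfrs18 (0.92). Their adjusted p-values from limma lay between 0.146 and 0.208. Of the 8 lower ones, 4 (Snrpd2, Snrpb, Snrpe and Snrpg) are Sm ring genes, but that grouping was made with the values in view and was not tested.

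Ratios relative to genes of similar level went with the GC content of the annotated transcripts, which was found for 61 of the 62 genes. Across genes, Pearson's r was -0.35 in BBC (-0.17 over 13351 entries). It was -0.47 in ZNF (0.034 over the entries) and -0.63 in BCRF8C (-0.23). Sf3a2 (59.6% GC), Snrpb (55.4%) and Sf3b4 lie at the GC rich end with low ratios in BCRF8C, and Hnrnpr (42.1%) and Hnrnpa3 (42.6%) at the GC poor end with high ones. Others went against the slope there, such as Snrpa (55.3% GC) at 0.42 and Srsf7 (42.1% GC) at -0.63. Snrpd2 (50.5%), Prpf19 (52.8%) and Srsf9 (50.5%) are above the members' median of 46.6%, but Sf3b5 (45.5%) is below it. With the logarithm of exon length r was 0.39 in BBC (-0.053 over the entries), 0.27 in ZNF (-0.038) and 0.46 in BCRF8C (0.15). All points of a line share its 2 libraries, and the part of GC content or length in the family differences was not tested.

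**Figure D5:**
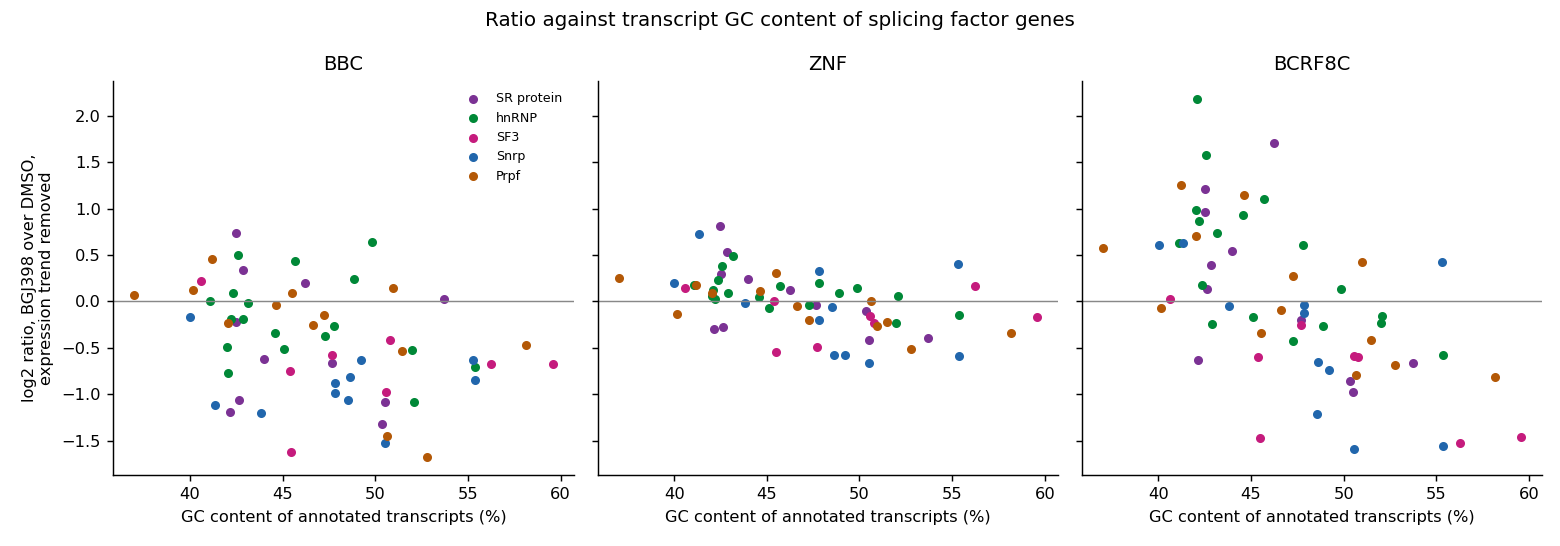
Log2 ratio, BGJ398 over DMSO, after removal of the expression trend, against the GC content of the annotated transcripts of 61 splicing factor genes, coloured by family. The points slope downward in each line and most steeply in BCRF8C, where r is -0.63.

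Other splicing genes, from 8 lists by textbook role, were lower too. Of 121 genes listed, 117 were tested, of which 77 (65.8%) were called lower and 0 higher, against 30.2% and 6.61% of all entries, with a median log2 ratio of -1.38 and 114 lower in all 3 lines. Relative to genes of similar level the 117 genes had a median of -0.14, with 65 below 0. These lists were chosen with earlier results of the data known, and, as for the members, 0.0% of entries were called once the expression trend was removed. Among genes of snRNP assembly, the pathway that loads Sm rings onto small nuclear RNAs, 12 of 14 fell. Prmt5, the methyltransferase that modifies Sm proteins, had the lowest ratio of that list. Its level was 6.51 FPKM in BBC, 30.7 FPKM in ZNF and 12.4 FPKM in BCRF8C with BGJ398, against 59.4, 64.3 and 72.7 FPKM with DMSO (log2 ratio -2.17, limma adjusted p = 0.0348). Gemin8, a subunit of the SMN complex, had the highest ratio there (-0.62, not called). This list had a median of -0.49 relative to genes of similar level, with 13 of 14 genes below 0.

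In the list of other snRNP proteins, made of the Snrnp and Lsm genes with Nhp2l1 and Naa38, 15 of 17 fell, from Lsm7 at -2.66, a protein of the U6 ring, to Lsm11 at -0.69, which like Nhp2l1 was not called. In the U2 and intron end list 8 of 11 fell, with U2af2, the large subunit of the polypyrimidine tract binding factor, at -2.21 and Zrsr2 at -0.72. Among partners of the tri-snRNP and the Prp19 complex 15 of 19 fell, with Ctnnbl1 at -1.96 and Syf2 at -0.71, which was not called. The helicases and late factors had 5 of 7 called, with the helicase Ddx41 at -1.55 and Slu7 at -0.79. Exon junction and export genes had 7 of 9 called, with the export helicase Ddx39 at -2.46 and Casc3 at -0.74. Zrsr2, Slu7 and Casc3 were not called. Over all entries 30.2% were called lower. Relative to genes of similar level the medians of these lists, in the order given, were -0.24, -0.25, -0.31, 0.013 and -0.56. Below 0 on that scale were 11 of 17, 7 of 11, 12 of 19, 3 of 7 and 7 of 9 genes.

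Of the SR-related genes and kinases of SR proteins, 2 of 12 fell (30.2% of all entries were called lower). The list median was -0.83, and relative to genes of similar level it was 0.45, with 1 of 12 genes below 0. Tra2b, an SR-like splicing activator, had the lowest log2 ratio of this list (-1.58, limma adjusted p = 0.0358). Clk1, a kinase that phosphorylates SR proteins, was the least changed gene of all 8 lists. With BGJ398 it had 39.9 FPKM in BBC, 92.9 FPKM in ZNF and 45.4 FPKM in BCRF8C, against 46.4, 85.7 and 60.6 FPKM with DMSO (log2 ratio -0.17, limma adjusted p = 0.719). It was lower with BGJ398 in BBC and BCRF8C, higher in ZNF, and the groups overlapped. Of 28 other splicing regulators 13 fell, with Raly, an hnRNP relative, at -1.91 and the neuronal regulator Ptbp2 at -0.38, which was not called. The median of that list relative to genes of similar level was 0.17, with 11 of 28 genes below 0.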

How the data were processed

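RNA of 6 libraries (3 lines, BGJ398 or DMSO) was sequenced. The authors deposited 1 table of FPKM values with 17169 entries, in which 0 value columns lacked a sample. The submitters' processing notes name bcl2fastq, TopHat2 (version 2.0.12) and the build NCBIM37. What program and annotation gave FPKM, and strandedness, is not given in the sources used here. Since the files hold no counts, depth is unknown and no counting interval is given.

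The scale was log2(FPKM + 1) with no rescaling, which understates changes of low genes. The 14232 entries averaging 1 FPKM or more were fitted with limma (version 3.58.1, R 4.3.3; lmFit, eBayes with trend) for BGJ398 against DMSO, blocked by line, with 2 residual degrees of freedom. P-values are two-sided and adjusted by Benjamini-Hochberg over all entries. Nothing says the libraries are repeat cultures, so p-values reflect the spread over 3 lines. With 3 pairs the smallest p of an exact sign-flip test is 0.25, so none was made. The fit was tested on simulated data with known changes and independent noise, which checks the code and not the calls made here. The lines pair the libraries: deviations from agent means correlated at 0.454, 0.541 and 0.549 within a line and at most -0.179 between lines. Such deviations sum to 0 over the 3 lines, which pushes the values between lines below 0. The values between lines are therefore no separate evidence of pairing.

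The expression trend was a loess curve (span 0.4) of ratio on mean level over all tested entries of a line. Transcript length and GC content came from GENCODE vM21, matched by identifier, and starts of loci were raised by 1, since end minus start equalled the annotated length for 6377 of 15944 matched entries. Of the 62 genes, 19 share a locus with another entry. Alternatives were other scalings, pseudocounts and filters, leaving out each line, and no block. Members, gene lists and tests were chosen with earlier results of these data known. Genes with full values are, per family, the most abundant, the 2 lowest and the highest by ratio and the one most variable between lines, and, per list, the lowest and highest. Values of 1 gene that enters every count are not reported here. Protein sequences were not used here.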

Additional observations from a re-analysis of the deposited data

Results flagged for a closer look

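For 2 genes the lines moved in opposite directions, and the difference was not tested, since each line has 1 library per agent. Sfrs18 had log2 ratios, BGJ398 over DMSO, of -0.76 in BBC, 0.067 in ZNF and -0.44 in BCRF8C. Hnrnpr had log2 ratios of -2.34 in BBC, -0.76 in ZNF and 0.23 in BCRF8C.

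The pseudogene entry Hnrnpa1l2-ps, left out by the choice of genes, had a low signal that was higher with BGJ398 in each line. It had 1.64 FPKM with BGJ398 and 1.04 FPKM with DMSO in BBC. In ZNF it had 1.01 FPKM with BGJ398 and 0.158 FPKM with DMSO, and in BCRF8C 2.63 FPKM with BGJ398 and 0.339 FPKM with DMSO. Reads shared with near-identical hnRNP A1 copies make this entry uncertain. So does its low level. Each marker gene with a nonzero level under 1 FPKM with DMSO in a line was also higher with BGJ398 there. An example is Cd79a in ZNF, with 1.12 FPKM with BGJ398 and 0.178 FPKM with DMSO. Whether Hnrnpa1l2-ps differs from other entries of such low level was not tested.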

How the results depend on the processing

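The number of members called lower (35) became 0 with median-of-ratios scaling, with quantile normalization, on removal of the expression trend, and with no replicate block. It lay between 0 and 50 when 1 line was left out. Over all entries the 5236 calls became 4 with median-of-ratios scaling, 3 with quantile normalization, 0 with the trend removed and 7 with no replicate block, and lay between 0 (without BBC) and 4974. Without BCRF8C there were 1648. At an unadjusted p under 0.05 limma still gave 3273 entries with the trend removed and 2991 without BBC. The block on the line is the pairing of the libraries. The members' median log2 ratio (-1.51) was -0.78, -0.28 and -0.15 under the first 3 of these, and -1.92 to -1.23 with 1 line left out. Relative to all entries (-0.82) it was -0.19 after quantile normalization, -0.17 with the trend removed and -0.47 with a mean of at least 5 FPKM, and -1.08 to -0.65 with 1 line left out. Members at least 2-fold lower were 30, 19 and 13 in BBC, 7, 0 and 0 in ZNF, and 28, 12 and 6 in BCRF8C after median-of-ratios scaling, quantile normalization and trend removal. Shares of all entries for these counts are not given here, so the counts cannot be read as above or below them. Pseudocounts of 0.1 and 0.5, other filters, limma without its trend and summing entries by symbol kept the counts of calls within 1.5 times. The cause of these changes was not tested beyond what each scaling does.

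Mean log2 ratios below 0 as deposited turned above 0 with the expression trend removed for Sfrs18 (0.92), Srsf1 (0.055), Srsf10 (0.34), Srsf11 (0.68), Srsf5 (0.42), Hnrnpa1 (0.21), Hnrnpa2b1 (0.19), Hnrnpa3 (0.82), Hnrnph1 (0.27), Hnrnph2 (0.17), Hnrnph3 (0.57), Hnrnpk (0.40), Hnrnpm (0.18), Hnrnpr (0.51), Hnrnpu (0.23), Hnrnpul1 (0.31), Hnrnpul2 (0.024), Sf3b1 (0.13), Snrpa (0.063), Snrpb2 (0.22), Snrpf (0.077), Prpf18 (0.021), Prpf38b (0.41), Prpf39 (0.30), Prpf4b (0.19), Prpf6 (0.10), Zrsr2 (0.28), Syf2 (0.56), Slu7 (0.33), Clk1 (1.27), Ptbp2 (0.46) and Casc3 (0.13). After quantile normalization this held for Sfrs18 (0.83), Srsf10 (0.25), Srsf11 (0.62), Srsf5 (0.20), Hnrnpa1 (0.098), Hnrnpa2b1 (0.052), Hnrnpa3 (0.75), Hnrnph1 (0.13), Hnrnph3 (0.49), Hnrnpk (0.18), Hnrnpm (0.059), Hnrnpr (0.49), Hnrnpu (0.050), Hnrnpul1 (0.13), Snrpb2 (0.092), Prpf38b (0.33), Prpf39 (0.20), Prpf4b (0.087), Prpf6 (0.018), Zrsr2 (0.17), Syf2 (0.46), Slu7 (0.24), Clk1 (1.13), Ptbp2 (0.34), and for the log2 ratio of Casc3 (0.0088). After median-of-ratios scaling it held for Sfrs18 (0.35), Hnrnpa3 (0.045), Hnrnph3 (0.062), Syf2 (0.012), Clk1 (0.56) and Ptbp2 (0.27). No sign turned when a line was left out. Depth is unknown, so how far counting error limits low values could not be given.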
